A study of Mus musculus with 27 samples.

Results

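The 6 genes described here are Penk, Cck, Lrrtm3, Brinp3, Asic3 and Phyhip, which encode neuropeptide precursors, synaptic or neural proteins and an acid-sensing channel, and which were measured in cultured mouse embryonic fibroblasts and in lung. They were selected by symbol from the 24062 gene rows of the deposited count table. The selection used measured values. Penk, Cck, Lrrtm3, Brinp3 and Asic3 were among the 10 highest or 10 lowest log2 fold changes of Het against WT fibroblasts in experiment 2. Lrrtm3, Brinp3 and Asic3 were among those of Het-NTD against WT-NTD as well. Phyhip was 1 of the 2 genes past the test threshold for WT-NTD against WT. In those comparisons, in those that share a library with them and, for Phyhip, in all fibroblast comparisons, the values below are therefore a description with no test. At the boundary of the selection, Asic3 was 10th among the higher genes ranked in Het against WT, at a log2 fold change of 2.09. The next gene ranked, Hddc3, had 1.96. On the lower side the 10th was Il31ra at -2.98 and the 11th was Eln at -2.94.

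Bulk RNA sequencing was carried out on 27 libraries in 9 groups of 3, all from C57BL/6 mice. Fibroblasts of experiment 1 were labelled KO-NTD, KO or WT, those of experiment 2 were labelled Het-NTD, Het, WT-NTD or WT, and lungs of animals aged 10 days were labelled Het or WT. The altered gene is Foxm1, a forkhead transcription factor that acts in G2 and mitosis. The labels leave NTD unexplained and do not give the altered stretch of Foxm1, the allele or any driver. Fibroblasts were early passage, asynchronous and near 90% confluence, per the labels. Libraries were not said to come from separate embryos, animals or cultures, and each p-value rests on library-to-library spread alone, which may be technical.

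Enkephalins and cholecystokinin are short peptides cut from longer precursors by proprotein convertases and carboxypeptidases, and they act on G protein-coupled receptors of nearby cells. LRRTM proteins are postsynaptic membrane proteins that bind neurexins on the presynaptic side. ASIC channels are sodium channels of sensory and central neurons that open when the extracellular fluid turns acid.

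Sequences upstream of the start are shown for Cck and Brinp3, which were high in Het fibroblasts, and for Lrrtm3, which was nearly absent there. They are from RefSeq on GRCm38.p6, read 5′ to 3′ on the gene's strand, and bases inside an annotated GENCODE M21 exon were left out. Capitals mark matches to the motifs searched, which were a TATA box (TATAAA), a short CRE (TGACG), an E-box (CACGTG), a forkhead motif (GTAAACA) and a CHR element (TTTGAA), on both strands.
Cck, minus strand, chr9:121495695-121495944: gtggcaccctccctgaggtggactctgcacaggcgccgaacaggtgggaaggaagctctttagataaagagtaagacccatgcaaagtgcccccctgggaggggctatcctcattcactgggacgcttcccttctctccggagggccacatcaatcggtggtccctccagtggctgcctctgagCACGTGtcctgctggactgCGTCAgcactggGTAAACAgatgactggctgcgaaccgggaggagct
Brinp3, plus strand, the most downstream of 3 starts, chr1:146497437-146497613: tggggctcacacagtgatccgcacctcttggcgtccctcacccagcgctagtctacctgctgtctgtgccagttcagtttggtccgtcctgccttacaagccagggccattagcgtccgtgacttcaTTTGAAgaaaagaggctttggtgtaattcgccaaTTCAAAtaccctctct
Lrrtm3, minus strand, chr10:64090278-64090505: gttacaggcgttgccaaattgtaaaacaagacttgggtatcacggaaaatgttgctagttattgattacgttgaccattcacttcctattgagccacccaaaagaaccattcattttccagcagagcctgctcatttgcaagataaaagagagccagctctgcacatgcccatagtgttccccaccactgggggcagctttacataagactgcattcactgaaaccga
Within 250 bases before the start, Cck held an E-box at 66 bases, a short CRE match at 47 bases and a forkhead match at 35 bases, which did not overlap. Brinp3 held a CHR match at 123 bases and one on the other strand at 89 bases from this start, and none at its other starts. No motif was matched in the Lrrtm3 or Asic3 windows. Of all 32851 windows of that length, 12.4% held the TATA letters, 17.8% the short CRE, 6.02% the E-box, 3.17% the forkhead letters and 16.0% the CHR letters. The table held windows for 4 of the 6 genes, and Penk and Phyhip are named only.

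Across the series, total counts were 29730693 to 69517834 per library (median 42708114). Levels below are counts relative to library size (CPM), with TMM scaling over all 27 libraries. Foxm1 was not lower in libraries labelled KO (150, 160 and 162 CPM) than in WT (145, 153 and 148 CPM), and it had 131 to 136 CPM in Het fibroblasts and 151 to 154 CPM in WT (log2 fold change -0.18, adjusted p = 0.249 with edgeR). Lungs had 13.96 to 16.9 CPM in Het and 15.0 to 16.8 CPM in WT. It was 305 to 422 CPM in all 9 libraries labelled NTD. The gene counts thus do not check the KO and Het labels, which are used here only as labels. Libraries of 1 group differed in experiment 1: the summed CPM of 12 macrophage markers was 37.7, 10.6 and 302 in KO-NTD 1 to 3 and 13.6, 412 and 275 in KO 1 to 3, against 105, 63.2 and 82.4 in WT 1 to 3.

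The fibroblast cultures carried fibroblast markers at high level, while most neuron and glial markers stayed under 1 CPM. Of 19 neuron markers, 11 were under 1 CPM in every fibroblast library, among them Rbfox3, Snap25, Syt1 and Syp, and the highest value of the 11 was 0.971 CPM. Tubb3, a tubulin, was at 68.4 to 213 CPM and had the highest median of the list, 131 CPM. Gap43, a growth cone protein, was at 9.29 to 20.5 CPM, Stmn2 at 4.17 to 57.2 CPM and Map2 at 3.39 to 36.9 CPM. Elavl4, Nefl, Nefm and Slc17a6 reached at most 2.13, 2.57, 2.08 and 1.88 CPM. Of 12 glial markers, 7 were under 1 CPM in every fibroblast library, including Gfap, Aqp4 and Mog. In Het against WT, 2 of 11 neuron markers tested passed, against 16.5% of all genes, and both were lower, Gap43 at -0.62 and Map2 at -2.08 on the log2 scale (median of the list -0.62). The summed neuron markers were 192 to 231 CPM in Het and 163 to 193 CPM in WT, and the ranges met at one end. In Het-NTD against WT-NTD the same 2 of 11 neuron markers tested passed, against 11.5% of all genes. Both were lower, Gap43 at -0.59 and Map2 at -1.75 (median of the list 0.13). Of 9 glial markers tested, only Olig1 passed in Het against WT, where 16.5% of all genes did. Olig1 was near the floor, at 0.291 CPM in Het and 0 in WT, with at most 16 counts in any fibroblast library. Only Mbp passed in Het-NTD against WT-NTD, where 11.5% of all genes did. It was lower, at 3.79 CPM in Het-NTD and 8.34 CPM in WT-NTD. In a bulk culture, fewer cells of a type and less RNA per cell cannot be told apart.

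**Figure D1:**
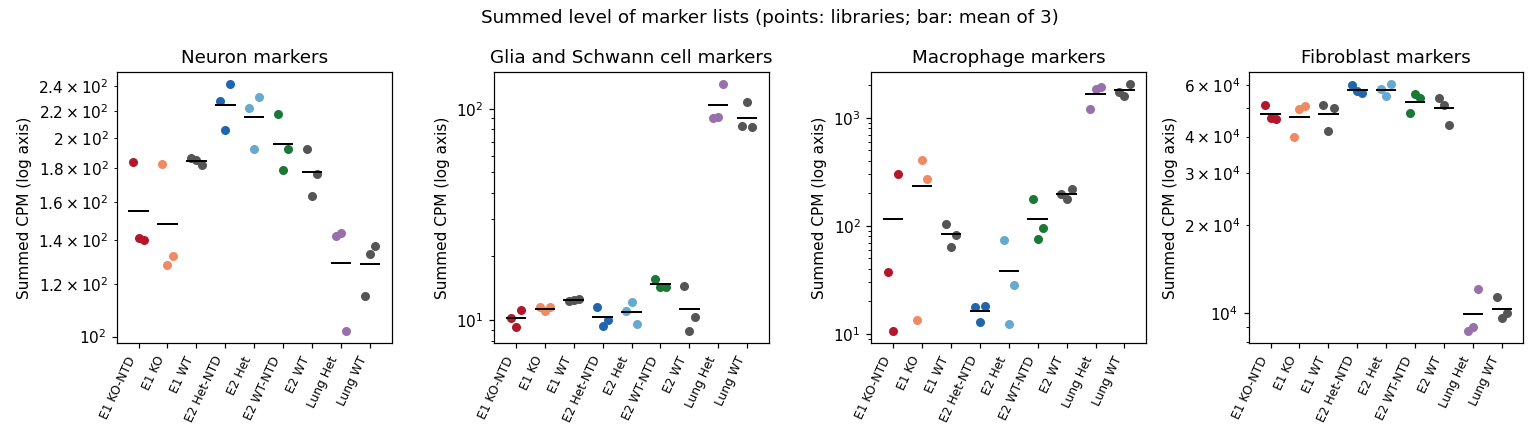
Summed CPM of the neuron, glial, macrophage and fibroblast marker lists (log axes) in each library of the 9 groups, E1 and E2 standing for the fibroblast experiments, with a bar at the mean of 3. Macrophage markers spread from 10.6 to 412 CPM within experiment 1 and were 12.4 to 74.6 CPM in Het against 177 to 219 CPM in WT of experiment 2.

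Penk (chr4:4133531-4138819, minus strand) encodes proenkephalin, the precursor of the enkephalins. In experiment 2 it was low in every library labelled Het or Het-NTD. Penk had 6.69, 2.2 and 1.01 CPM in Het 1 to 3, against 18.4, 89.5 and 42.6 CPM in WT 1 to 3. Penk had 2.26, 2.58 and 1.16 CPM in Het-NTD 1 to 3, against 2.48, 42.4 and 18.3 CPM in WT-NTD 1 to 3. The Het and WT libraries did not overlap, whereas WT-NTD 1 lay within the Het-NTD range.

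The log2 fold change of Penk was -3.90 ± 1.07 (SE) in Het against WT, the comparison that selected it. Het-NTD against WT-NTD did not select Penk and shares no library with Het against WT, though both came from one fit. There its log2 fold change was -3.39 ± 1.10 and the adjusted p was 0.0902 (edgeR quasi-likelihood test), so it did not pass the Benjamini-Hochberg threshold of 0.05. Without WT-NTD 1 the adjusted p was 0.0357 with edgeR and the log2 fold change -3.91, and with DESeq2 on all libraries the adjusted p was 0.00698.

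In experiment 1 Penk varied within groups. It had 9.87, 9.17 and 66.7 CPM in KO-NTD 1 to 3, 12.8, 77.6 and 113 CPM in KO 1 to 3, and 22.0, 23.2 and 38.3 CPM in WT 1 to 3. KO 1, KO-NTD 1 and KO-NTD 2 lay below all WT libraries, and the other KO and KO-NTD libraries lay above them. Neither comparison passed with edgeR (KO against WT 1.31 ± 0.93, adjusted p = 0.625, and KO-NTD against KO -1.26 ± 0.92, adjusted p = 0.744). In lung, Penk had 17.7, 18.8 and 11.4 CPM in Het and 12.8, 15.8 and 12.8 CPM in WT, overlapping, with a log2 fold change of 0.21 ± 0.22 (adjusted p = 1 with edgeR).

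Cck (chr9:121489824-121495694, minus strand) encodes cholecystokinin, a peptide of gut endocrine cells and of neurons. In experiment 2 it ran opposite to Penk. Cck had 14.1, 16.7 and 12.2 CPM in Het 1 to 3, against 3.32, 1.04 and 4.52 CPM in WT 1 to 3. It had 9.09, 12.6 and 10.5 CPM in Het-NTD 1 to 3, against 6.00, 2.79 and 4.45 CPM in WT-NTD 1 to 3. Neither pair of groups overlapped.

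The log2 fold change of Cck was 2.29 ± 0.43 in Het against WT, which selected it. In Het-NTD against WT-NTD, which did not, it was 1.305 ± 0.41 with an adjusted p of 0.0740 (edgeR), and it stayed above the threshold with any 1 library left out. The adjusted p was 0.0485 with DESeq2 and 0.0202 with edgeR fitted on these 6 libraries alone.

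In experiment 1, Cck had 10.7, 47.9 and 8.63 CPM in KO-NTD 1 to 3, 78.6, 3.48 and 3.05 CPM in KO 1 to 3, and 5.49, 3.53 and 5.40 CPM in WT 1 to 3. KO 1 held the highest level of the series, and KO 2 and KO 3 lay below every WT library. The log2 fold change of KO against WT was 2.58 ± 1.295 (adjusted p = 0.483 with edgeR), and without KO 1 it was -0.53. In lung, Cck had 0 counts in all 3 Het libraries, which allows up to 0.0198 CPM over the group for counting error, and 4 counts in the WT libraries together, too few to test.

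Lrrtm3 encodes an LRRTM adhesion protein, and its gene lies inside Ctnna3 on the opposite strand (chr10:63928472-64090277, minus). It was almost absent from the Het cultures. Lrrtm3 had 0.0492, 0.0518 and 0.145 CPM in Het 1 to 3, against 2.99, 9.37 and 5.35 CPM in WT 1 to 3. The counts behind these values were 9 in the Het libraries together and 642 in WT. Scaled for library size, Het was 75.3-fold lower (95% counting interval 39.4 to 165), with no overlap. In the NTD libraries, Lrrtm3 had 2, 0 and 2 counts in Het-NTD 1 to 3, against 0.768, 5.97 and 2.87 CPM in WT-NTD 1 to 3. Het-NTD was 110-fold lower than WT-NTD (95% counting interval 42.6 to 406), from 4 counts against 359. These intervals cover counting error only.

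In experiment 1, Lrrtm3 split the libraries of each group. It had 0.834, 0.394 and 6.67 CPM in KO-NTD 1 to 3, 0.153, 8.85 and 10.6 CPM in KO 1 to 3, and 2.45, 1.81 and 6.13 CPM in WT 1 to 3. KO 1, KO-NTD 1 and KO-NTD 2, the 3 libraries below WT for Penk, were also below all WT libraries here. The log2 fold change was 0.95 ± 1.31 for KO against WT (adjusted p = 0.824 with edgeR) and -1.33 ± 1.33 for KO-NTD against KO (adjusted p = 0.798 with edgeR). Lungs had 1.70, 0.995 and 1.67 CPM in Het and 1.51, 2.08 and 0.888 CPM in WT, a log2 fold change of -0.04 ± 0.39 (adjusted p = 1 with edgeR). Het and WT lungs overlapped, and both lay far above the Het cultures.

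Brinp3 encodes a member of the BMP and retinoic acid inducible neural-specific protein family (chr1:146494760-146902472, plus strand). It was high in Het cultures and barely detected in WT. Brinp3 had 6.32, 3.93 and 4.57 CPM in Het 1 to 3, against 0.466, 0.293 and 0.384 CPM in WT 1 to 3. It had 6.09, 7.99 and 4.92 CPM in Het-NTD 1 to 3, against 0.244, 0.631 and 1.33 CPM in WT-NTD 1 to 3. Neither pair overlapped, and the log2 fold changes were 3.69 ± 0.44 and 3.10 ± 0.41.

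Experiment 1 did not select Brinp3. There it had 5.23, 11.7 and 2.45 CPM in KO-NTD 1 to 3, 12.3, 1.45 and 1.29 CPM in KO 1 to 3, and 0.562, 0.256 and 0.555 CPM in WT 1 to 3. All KO and KO-NTD libraries lay above all WT libraries, and KO 1 lay far above KO 2 and KO 3. The log2 fold change of KO against WT was 3.47 ± 1.05 (adjusted p = 0.246 with edgeR), and it was 1.62 without KO 1. With DESeq2 the adjusted p was 0.0246. KO-NTD against KO gave 0.36 ± 0.91 (adjusted p = 0.922 with edgeR). Brinp3 had 0 counts in all 6 lung libraries, which allows up to 0.0198 CPM over the Het group and 0.0230 CPM over the WT group.

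Asic3 encodes an acid-sensing channel known from sensory neurons (chr5:24413392-24417835, plus strand). Its Het and Het-NTD libraries lay above all others of the series. Asic3 had 3.66, 4.01 and 3.21 CPM in Het 1 to 3, against 1.18, 0.612 and 0.768 CPM in WT 1 to 3. It had 4.61, 4.17 and 3.36 CPM in Het-NTD 1 to 3, against 0.837, 0.776 and 1.11 CPM in WT-NTD 1 to 3. Neither pair overlapped, and the log2 fold changes were 2.09 ± 0.25 and 2.17 ± 0.25.

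In experiment 1, which did not select it, Asic3 had 1.48, 2.18 and 1.97 CPM in KO-NTD 1 to 3, 2.06, 1.497 and 1.64 CPM in KO 1 to 3, and 0.877, 0.548 and 0.933 CPM in WT 1 to 3. All 6 KO and KO-NTD libraries lay above the WT libraries and below the Het and Het-NTD libraries of experiment 2. The log2 fold change of KO against WT was 1.16 ± 0.28 (adjusted p = 0.145 with edgeR), 1.02 without KO 1, and the adjusted p with DESeq2 was 0.0131. KO-NTD against KO gave 0.10 ± 0.27 (adjusted p = 0.931 with edgeR). Lungs held 41 counts over the Het libraries and 20 over the WT libraries, too few to be fitted.

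Phyhip encodes a protein that interacts with phytanoyl-CoA hydroxylase and is known mainly from brain (chr14:70457476-70468832, plus strand). Among the cultures it stood out in WT-NTD. Phyhip had 3.35, 3.74 and 3.38 CPM in WT-NTD 1 to 3, against 0.274, 0.133 and 0.207 CPM in WT 1 to 3. The 3 WT-NTD libraries lay above all 18 other fibroblast libraries, which ran from 0.0737 to 0.437 CPM. From 357 counts in WT-NTD and 22 in WT, the ratio was 17.2 (95% counting interval 11.2 to 27.9), and the log2 fold change was 4.07 ± 0.43.

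Phyhip was not high in the other NTD groups. It had 0.437, 0.265 and 0.131 CPM in Het-NTD 1 to 3, so Het-NTD against WT-NTD gave a log2 fold change of -3.62 ± 0.40. It had 0.189, 0.232 and 0.231 CPM in KO-NTD 1 to 3, overlapping the 0.306, 0.229 and 0.228 CPM of KO 1 to 3. The KO libraries lay just above WT of experiment 1, at 0.180, 0.128 and 0.178 CPM. Of 22 genes tested within 500 kb of Phyhip, 0 passed in WT-NTD against WT with edgeR, where only 0.014% of all genes did. Their log2 fold changes ran from -0.86 to 1.86. The neighbour Bmp1, a procollagen protease, had a log2 fold change of 0.15 (adjusted p = 0.853 with edgeR). In lung, Phyhip had 1.62, 0.976 and 1.29 CPM in Het and 0.806, 2.13 and 1.13 CPM in WT, overlapping, with a log2 fold change of -0.07 ± 0.42 (adjusted p = 1 with edgeR).

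**Figure D2:**
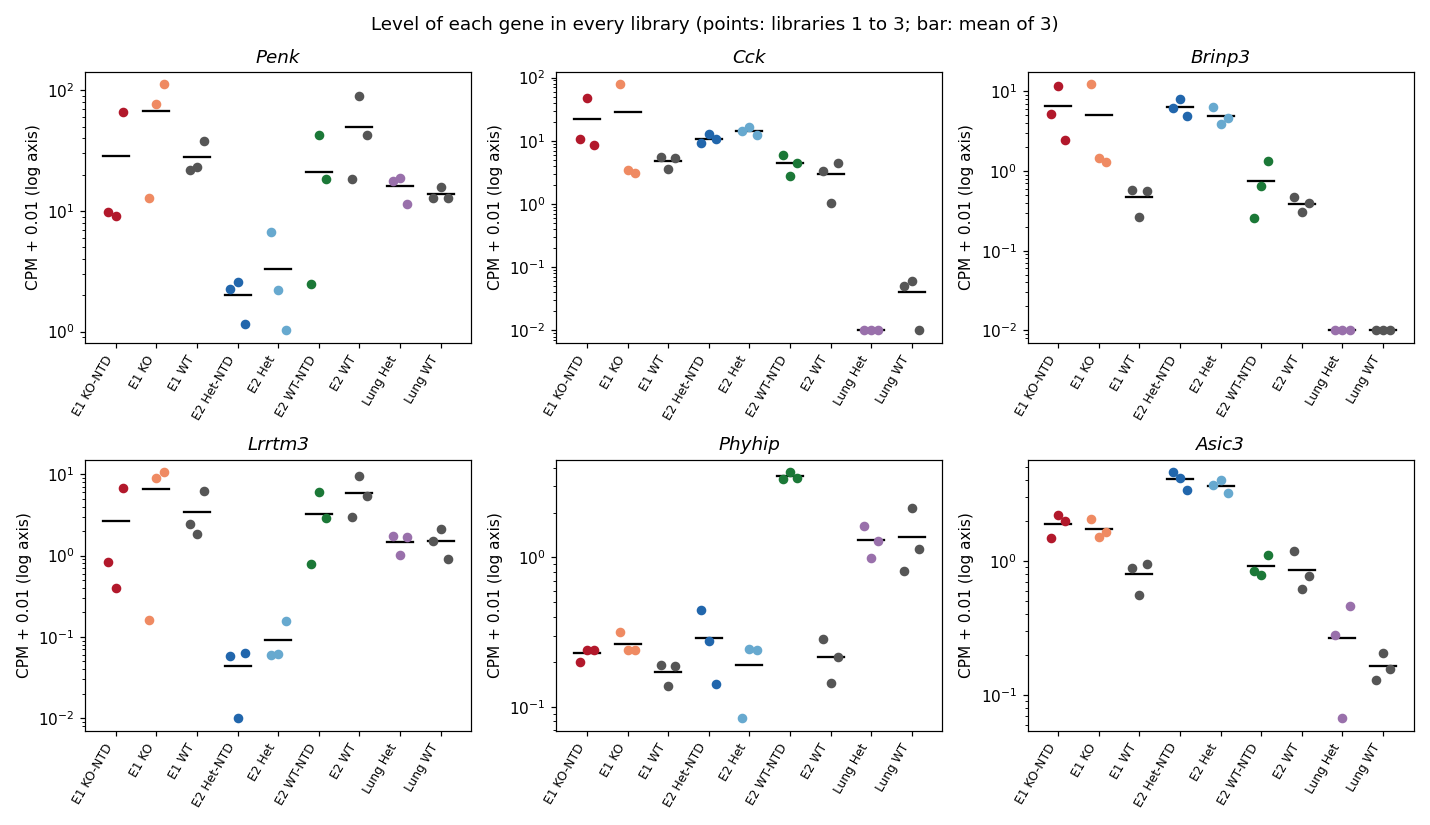
Level of each of the 6 genes in every library, as CPM plus 0.01 on log axes, by group, with a bar at the mean of 3; E1 and E2 are the fibroblast experiments. Lrrtm3 sits at or below 0.145 CPM in all Het and Het-NTD libraries against 0.768 to 9.37 CPM in WT-NTD and WT of experiment 2, and Phyhip is at 3.35 to 3.74 CPM in WT-NTD.

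In Het against WT, 5 of the 6 genes passed the test with edgeR, as their selection fixed, while 16.5% of the 14314 genes tested passed. Brinp3, Cck and Asic3 were higher, as were 7.89% of all genes, and Penk and Lrrtm3 lower, as were 8.61%. The libraries of these 5 genes did not overlap between Het and WT, nor did those of 33.8% of all genes. The count of 5 was 4 without the low-count filter, with the replicate block, and with any 1 library other than WT 1 left out. In Het-NTD against WT-NTD, 4 of 6 passed with edgeR (Brinp3, Asic3, Lrrtm3 and Phyhip), against a background of 11.5%, and 6 of 6 with DESeq2. Selection fixed the passes of Brinp3, Asic3 and Lrrtm3 here, and Phyhip, selected for its WT-NTD level, is description only. Brinp3 and Asic3 were higher (background 5.24%) and Lrrtm3 and Phyhip lower (background 6.24%), and libraries did not overlap for these 4 and Cck (background 32.1%). Penk and Cck, tested there, did not pass with edgeR. In WT-NTD against WT only Phyhip passed, as its selection fixed, against a background of 0.014%, and only its libraries did not overlap (background 9.33%). In Het-NTD against Het 0 of 6 passed with the same background of 0.014%. The log2 fold changes of Het-NTD against Het ran from -1.21 ± 1.74 for Lrrtm3, on 4 against 9 counts, to 0.65 for Phyhip, and all 6 genes overlapped between the groups, while 16.3% of all genes did not. Comparisons of experiment 2 share libraries, so their values are not separate evidence.

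In experiment 1, 0 of the 6 genes passed in KO against WT with edgeR, where 0.447% of 14551 genes did. At an unadjusted p under 0.05 the count was 2 (Brinp3 and Asic3), and DESeq2 called the same 2. The KO and WT libraries did not overlap for Brinp3, Asic3 and Phyhip, while 18.4% of all genes tested did not overlap. In KO-NTD against KO, where all 6 genes overlapped between the groups and 11.8% of all genes did not, 0 of the 6 passed with edgeR, 0 at an unadjusted p under 0.05 and 0 with DESeq2, against a background of 0.00687%. In lung 0 of the 3 genes tested passed, as did 0% of all genes with edgeR (114 genes at an unadjusted p under 0.05 and 1 with DESeq2). Het and WT lungs overlapped for Penk, Lrrtm3, Phyhip and Asic3, as against 4.38% of all genes that did not. With 3 libraries a group, the smallest p that exact permutation of a single value allows is 0.1.

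**Figure D3:**
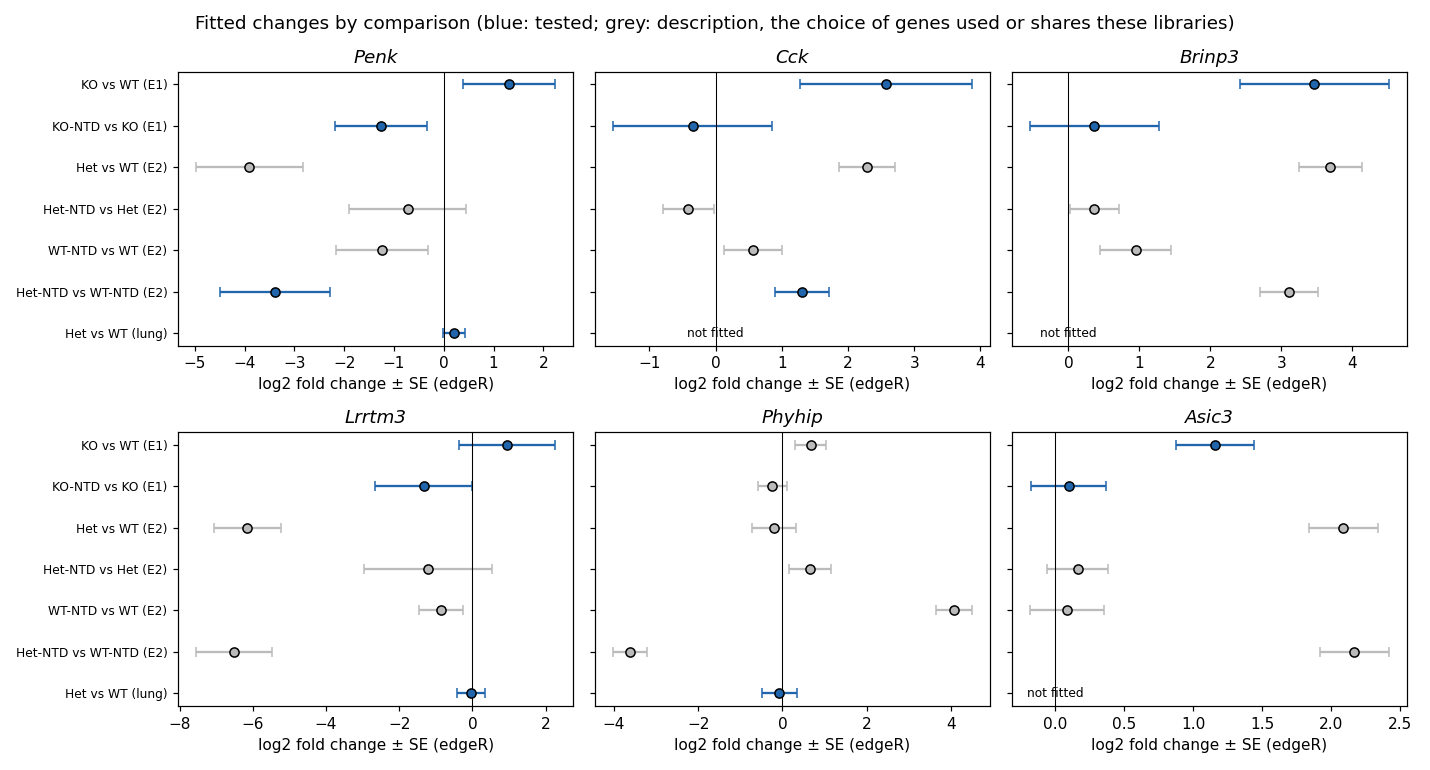
Log2 fold change of each of the 6 genes in the 7 comparisons, with the standard error from edgeR; blue points are tests and grey points are description only, since the gene was selected in that comparison, in one sharing libraries with it or, for Phyhip, among the fibroblasts. Lrrtm3 is at -6.16 and -6.51 and Brinp3 at 3.69 and 3.10 in the Het and Het-NTD comparisons, and bars of experiment 1 are wide for Cck and Lrrtm3.

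Per kilobase of exon, the order of levels in WT of experiment 2 was Penk at 30.7, Cck at 2.27, Lrrtm3 at 1.39, Asic3 at 0.352, Phyhip at 0.0703 and Brinp3 at 0.0544 CPM per kb. In Het the order was Cck at 10.98, Penk at 2.02, Asic3 at 1.498, Brinp3 at 0.706, Phyhip at 0.0616 and Lrrtm3 at 0.0193 CPM per kb. Cck thus stood above Penk in Het and far below it in WT. Over all 9 groups, Asic3 fell into 4 separate levels: Het-NTD and Het, then KO-NTD and KO, then the 3 WT or WT-NTD groups, then lung. Groups within each level overlapped. For Lrrtm3, all Het and Het-NTD libraries lay below those of every other group. For Penk, Het and Het-NTD had the lowest means, but WT-NTD 1 lay within the range of both. For Cck and Brinp3, the KO, KO-NTD, Het and Het-NTD groups were highest by mean, WT and WT-NTD came next and lung was lowest, with each neighbour among the highest 4 overlapping.

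In experiment 1, Penk, Lrrtm3, Cck and Brinp3 split the KO and KO-NTD libraries within their labels. KO 1, KO-NTD 1 and KO-NTD 2 had more Cck and Brinp3 and less Penk and Lrrtm3 than KO 2, KO 3 and KO-NTD 3. The summed macrophage markers were 13.6, 37.7 and 10.6 CPM in KO 1, KO-NTD 1 and KO-NTD 2, and 412, 275 and 302 CPM in KO 2, KO 3 and KO-NTD 3. In experiment 2 the sums were 12.4 to 74.6 CPM in Het and 177 to 219 CPM in WT, and 13.02 to 18.1 CPM in Het-NTD and 75.4 to 178 CPM in WT-NTD. Of 12 macrophage markers, 9 fell in Het against WT (median log2 fold change -2.42) and 11 in Het-NTD against WT-NTD (median -3.24) with edgeR, against 8.61% and 6.24% of all genes tested. The median of all genes was 0.01 and 0.00. None of the 12 passed in KO against WT, whose list median was 1.15, or in KO-NTD against KO, at -1.02. WT-NTD 1 broke the pattern, with the highest macrophage sum of its group, 178 CPM, and the lowest Penk and Lrrtm3. Some other marker sums also split the experiment 1 libraries. Muscle markers summed to 96.5, 62.2 and 94.9 CPM in KO 1, KO-NTD 1 and KO-NTD 2. They summed to 34.9, 33.8 and 45.5 CPM in KO 2, KO 3 and KO-NTD 3. Neural progenitor markers, in the same order, were at 122, 138 and 131 CPM, against 70.8, 66.8 and 86.5 CPM. Mesothelial sums of these libraries overlapped. The part of the macrophage content, or of these other sums, in the levels of the 6 genes was not tested.

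**Figure D4:**
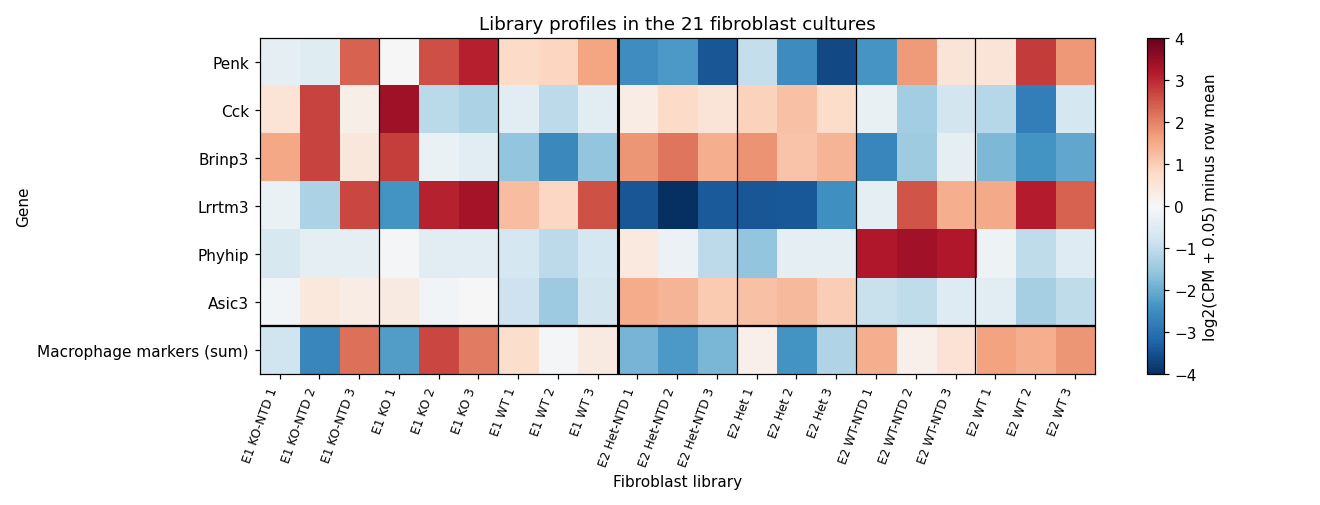
Log2(CPM + 0.05) minus the row mean for the 6 genes and for the summed macrophage markers across the 21 fibroblast libraries. Penk and Lrrtm3 are low in the Het and Het-NTD libraries. In KO 1, KO-NTD 1 and KO-NTD 2 both lie below WT of experiment 1. Of these, Penk in KO 1 and Lrrtm3 in KO-NTD 1 are near their row means. Brinp3 and Cck are high in all these KO, KO-NTD, Het and Het-NTD libraries. Penk is also low in WT-NTD 1, at 2.48 CPM. The macrophage sum is low in KO 1, KO-NTD 1, KO-NTD 2 and the Het and Het-NTD libraries except Het 1, at 74.6 CPM. Phyhip is high in the 3 WT-NTD libraries.

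Mesothelial markers also moved. Of 6, 4 fell in Het against WT (Msln, Upk3b, Lrrn4 and Upk1b, list median -2.17), where 8.61% of all genes fell. The sums were 23.9 to 29.0 CPM in Het and 56.0 to 74.3 CPM in WT. In Het-NTD against WT-NTD the same 4 fell and Wt1 rose (median -1.72), where 6.24% of all genes fell and 5.24% rose. The sums were 26.2 to 36.0 CPM in Het-NTD and 49.3 to 57.6 CPM in WT-NTD. Of 7 muscle markers tested, the developmental myosins Myh3 and Myh8 were higher in both comparisons (list medians 1.25 and 0.80). Actc1, cardiac actin, was higher in Het-NTD against WT-NTD. The shares of all genes higher were 7.89% in Het against WT and 5.24% in Het-NTD against WT-NTD. Among 10 fibroblast markers, Fn1, fibronectin, rose by 0.53 and Lum, lumican, fell by 2.43 on the log2 scale in Het against WT, where 16.5% of all genes passed. Their part in the levels of the 6 genes was not tested.

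Members of the peptide pathway around Penk and Cck were mostly absent or did not pass. Of the other opioid and cholecystokinin precursors and receptors, 10 were in the table and 1 was tested in experiment 2, and it did not pass in any comparison. The opioid receptor Oprm1 had 0 counts in all 27 libraries, and in fibroblasts Oprd1 reached at most 0.265 CPM and the cholecystokinin receptors Cckar and Cckbr at most 0.382 and 0.0444 CPM. Cckar was 37.0 to 46.5 CPM in Het lungs and 35.0 to 40.6 CPM in WT lungs. Of 10 other neuropeptide precursors tested, only Npy, neuropeptide Y, passed in Het against WT, where 16.5% of all genes did. It was lower, at 0.149 ± 0.0631 CPM in Het and 0.479 ± 0.171 CPM in WT (SD, n = 3 each). These low levels rest on 17 counts in Het and 52 in WT. The log2 fold change of Npy was -1.66 (adjusted p = 0.0328 with edgeR). The list median was -0.28. In Het-NTD against WT-NTD 0 passed (median -0.18), where 11.5% of all genes did.

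Among the 12 peptide processing and granule genes tested, 1 rose and 3 fell in Het against WT (list median -0.21), where 7.89% of all genes rose and 8.61% fell. Ctsl, cathepsin L, a protease that can cut prohormones, averaged 420 CPM in Het and 256 CPM in WT, a log2 fold change of 0.71 (adjusted p = 0.00497 with edgeR). Mme, neprilysin, which degrades enkephalins, fell by 2.11 on the log2 scale (adjusted p = 0.0131 with edgeR). The convertase Pcsk6 had -1.18 and the carboxypeptidase Cpd -0.18 (edgeR adjusted p = 0.0441 and 0.0328). In Het-NTD against WT-NTD only Ctsl passed, at 0.59 (adjusted p = 0.0152 with edgeR). Of the classical processing enzymes, Cpe, carboxypeptidase E, was at 190 to 340 CPM in fibroblasts, while the convertases Pcsk1 and Pcsk2 reached at most 0.336 and 0.319 CPM. Another convertase, Furin, was at 182 to 346 CPM in fibroblasts.

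Of 24 other synaptic adhesion genes tested, 2 rose and 4 fell in Het against WT (list median -0.11), where 16.5% of all genes passed. The counts were 1 and 5 in Het-NTD against WT-NTD (median -0.15), where 11.5% of all genes passed. In Het against WT, Lrrc4c, a netrin-G ligand, rose by 1.07, and the receptor phosphatases Ptprd and Ptprf and the adhesion protein Flrt3 fell by 0.94, 0.55 and 0.80 (edgeR adjusted p = 0.00373, 0.00235, 0.00378 and 0.00815). In Het-NTD against WT-NTD, Cadm1 fell by 1.41, Ptprf by 0.48 and Ptprd by 0.68, and Lrrtm2 rose by 0.87 (edgeR adjusted p = 0.00837, 0.00975, 0.0148 and 0.0247). Lrrtm2 rose by 0.70 in Het against WT as well (adjusted p = 0.0405 with edgeR). Lrrtm1, of the same family as Lrrtm3, fell by 1.02 in Het against WT and by 1.11 in Het-NTD against WT-NTD (edgeR adjusted p = 0.0435 and 0.0364).

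Lrrtm1, Lrrtm2 and Lrrtm3 lie within the α-catenin genes Ctnna2, Ctnna1 and Ctnna3, on the opposite strand. Ctnna2 averaged 3.25 CPM in Het and 7.59 CPM in WT, a log2 fold change of -1.22 ± 0.19 (adjusted p = 0.0018 with edgeR), and 2.39 CPM in Het-NTD and 6.76 CPM in WT-NTD, at -1.50 (adjusted p = 0.000638 with edgeR). Ctnna1, an α-catenin of most cells, averaged 430 CPM in Het and 433 CPM in WT, at -0.01. Ctnna3, which holds Lrrtm3, averaged at most 0.071 CPM in any fibroblast group, and 0.637 and 0.729 CPM in Het and WT lungs. The library kit, per the labels, does not mark the strand, so reads of overlapping exons on opposite strands cannot be told apart, which for the 6 genes concerns Penk and Brinp3.

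The relatives of Brinp3 and Asic3 did not follow them. Brinp1 averaged 8.37 ± 1.92 CPM in Het and 13.2 ± 1.58 CPM in WT (SD, n = 3 each), a log2 fold change of -0.65 ± 0.16 (adjusted p = 0.0156 with edgeR). It averaged 7.58 CPM in Het-NTD and 11.995 CPM in WT-NTD, at -0.66 (adjusted p = 0.0201 with edgeR). Brinp2 had -1.62 in Het against WT (adjusted p = 0.137 with edgeR). Of 7 other ASIC and acid- or force-sensing channels tested, 0 passed with edgeR in any comparison, and Asic1 averaged 5.22 CPM in Het and 6.48 CPM in WT (log2 fold change -0.31, adjusted p = 0.370). Of 3 PHYHIP family genes and partners, 1 passed, Phyh, the peroxisomal hydroxylase that Phyhip binds, which rose by 0.57 in Het-NTD against WT-NTD (11.3 CPM in Het-NTD and 7.63 CPM in WT-NTD, adjusted p = 0.0240 with edgeR). In the other 5 comparisons no gene of these pathway lists passed.

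**Figure D5:**
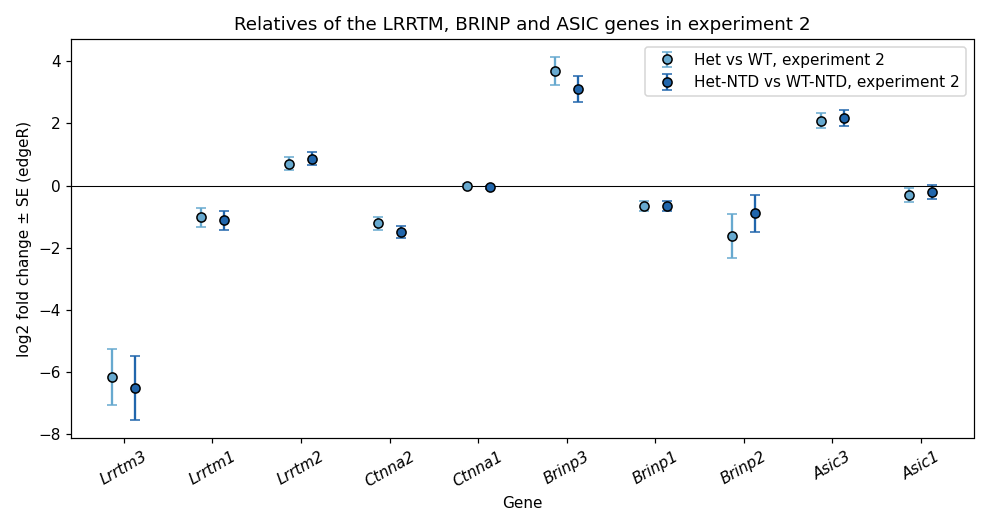
Log2 fold change with standard error in Het against WT and Het-NTD against WT-NTD of experiment 2 for Lrrtm3, Brinp3 and Asic3 and for their relatives and α-catenin host genes. Lrrtm3 and Brinp3 lie far out at -6.16 and 3.69, while Brinp1 at -0.65, Asic1 at -0.31 and Ctnna1 at -0.01 lie near 0 or below it in Het against WT. Lrrtm1 at -1.02, Ctnna2 at -1.22 and Brinp2, lower still, also lie below 0, and Lrrtm2 lies above it at 0.70.

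Genes with the most similar profile over the 21 fibroblast libraries were ranked by Pearson's r of log2 CPM among 11456 genes, given as a description since all libraries share the same groups. For Penk they were Pcdhac2 (0.975), Chst7 (0.965) and Pcp4l1 (0.965), and for Lrrtm3 they were Il31ra (0.959), Prkg1 (0.959) and Ctnna2 (0.957). For Cck they were Serpinb6a (0.947), A330021E22Rik (0.942) and Rab31 (0.930), for Brinp3 Pygl (0.954), Naalad2 (0.944) and Rasl12 (0.942), and for Asic3 Gramd1b (0.948), Aebp1 (0.943) and P4ha2 (0.939). Il31ra, a cytokine receptor subunit, averaged 0.805 CPM in Het-NTD, 1.19 CPM in Het, 8.12 CPM in WT-NTD and 9.45 CPM in WT. No gene followed Phyhip as closely. Its nearest were Irx1 (0.738), Chmp7 (0.737) and Cwf19l1 (0.732), and Irx1 had 95.7 to 114 CPM in WT-NTD and 58.7 to 106 CPM in WT, which overlapped.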

How the data were processed

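About 200 ng of RNA per sample was made into libraries with a TruSeq v2 kit, per the labels. The authors deposited 1 table of raw counts per gene, and the submitters' processing notes name TopHat2 2.0.14, Bowtie2 2.2.6, featureCounts 1.4.6 and the mm10 build. Of counts from 1 to 30, 61.5% to 67.3% were even, so counting intervals may be too narrow. All 27 columns were used and mapped by their labels.

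Both fibroblast experiments and the lung data had their own edgeR 4.0.16 fit (R 4.3.3): genes kept by filterByExpr, TMM, a robust quasi-likelihood fit, two-sided tests, and Benjamini-Hochberg adjustment over all genes tested, called at 0.05. Levels are CPM with TMM over all libraries. Replicate numbers come from the labels. Same-numbered libraries were compared, and they did not pair in every comparison. In WT-NTD against WT their correlations were all positive (0.07 to 0.45). A shared origin of same-numbered libraries was not tested, and the main fits were unpaired. Alternatives were DESeq2 1.42.0, RLE size factors, no filter, a replicate block, only the groups compared, and each library left out. Tables and figures were made with pandas 2.3.3 and matplotlib 3.10.9. The method was tested on data simulated with a common spread for all genes. Changes were put only into genes with ample counts. The simulation thus does not cover genes of low count or uneven spread between libraries.

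The 6 genes and all lists were chosen with earlier results of these data known. For each pathway list, up to 4 genes per comparison past the threshold with the lowest p were named. Lrrtm1, Brinp2, Asic1, receptors, processing enzymes and catenins without a call were named after their values were seen. For each of the 6 genes the 3 most similar profiles were named, among genes averaging at least 1 log2 CPM. Positions are from GENCODE M21 (GRCm38, equal to mm10) and RefSeq GRCm38.p6.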

Additional observations from a re-analysis of the deposited data

How the results depend on the processing

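Of the log2 fold changes of single genes under the alternatives, 400 kept direction and side of the threshold or, where description only, moved by less than the spread between libraries. Of the rest, 6 became stronger, 14 of tested values reversed and 3 of description values moved by more; the causes were not tested. None of the reversed values had passed. Description values also changed sign: Phyhip in Het against WT was 0.07 without WT 1 and 0.19 without Het 1, Penk in Het-NTD against Het 0.32 without Het 1, and Asic3 in WT-NTD against WT -0.11 without WT 2 and -0.09 without WT-NTD 3. Cck in KO against WT was -0.53 without KO 1 and 3.11 without KO 3. In KO-NTD against KO, Cck was 0.60 with the replicate block, 2.76 without KO 1, 0.04 without KO-NTD 3 and -1.57 without KO-NTD 2, Brinp3 was -0.08, -0.09 and -0.40 without KO 2, KO 3 and KO-NTD 2 and 2.21 without KO 1, and Asic3 was -0.027 without KO-NTD 2 and 0.25 without KO-NTD 1. In lung, Lrrtm3 was 0.0063 with the block, 0.27 without WT 2, 0.17 without Het 2 and -0.31 without WT 3, and Phyhip was 0.015 with the block, 0.41 without WT 2, 0.10 without Het 2 and -0.33 without WT 1.

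Genes called in KO against WT were 65, 449 with DESeq2, 36 fitting only the groups compared and 24 to 142 with a library left out, and members called were 0, against 2 with DESeq2. KO-NTD against KO had 1 call, 2 with no filter, 26 with DESeq2 and 1 to 29 with a library left out. Het against WT had 2362, 1389 with only its groups and 1304 to 2547 with a library left out. Het-NTD against Het had 2, 1 with the block, 23 with DESeq2, 20 with only its groups and 1 to 3 with a library left out. WT-NTD against WT had 2, 5 with no filter, 4 with the block, 21 with DESeq2, 1 with only its groups, and 2 to 119, the highest without WT 1. Het-NTD against WT-NTD had 1643, and 739 to 1622 with a library left out. Lung had 0, and 1 with DESeq2. DESeq2 shared 2352 of the 2362 calls in Het against WT. The block gave 52 calls in KO against WT, 2557 in Het against WT and 1677 in Het-NTD against WT-NTD. Correlations of same-numbered libraries ran from -0.48 to 0.61 over all comparisons, so the numbers gave no pairing that held throughout. In WT-NTD against WT they were 0.07 to 0.45, while libraries of different number there had -0.38 to 0.15. Levels scaled within each experiment were 0.917 to 1.22 times those given.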

Other observations

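Low counts limit Phyhip in most cultures, where 3 to 18 counts per library were seen outside WT-NTD, and Lrrtm3 in Het and Het-NTD, where 0 to 5 were seen. Among marker lists not described above, Cdh5, an endothelial cadherin, averaged 1.48 CPM in Het and 0.201 CPM in WT, while the endothelial receptor Kdr averaged 2.11 CPM in Het and 6.17 CPM in WT. Krt18, an epithelial marker, also passed there with edgeR, at -1.10 on the log2 scale. In Het-NTD against WT-NTD, Krt5, Fabp4, Sftpc and Cdh5 were higher, at 2.55, 1.63, 3.59 and 2.35. Kdr and Emcn were lower, at -1.46 and -1.07. Krt5 and Sftpc averaged only 0.859 and 0.954 CPM in Het-NTD. Of all genes, 16.5% passed in Het against WT and 11.5% in Het-NTD against WT-NTD. Of 3 neural progenitor markers tested, Fabp7 rose by 1.86 on the log2 scale in Het against WT, at 2.13 CPM in Het and 0.585 CPM in WT, and 0 passed in Het-NTD against WT-NTD with edgeR.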
